A study of Mus musculus with 6 samples.

Results

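The 10 genes described here make, lengthen and desaturate fatty acids or control that work: Acly, Acaca, Acacb, Fasn, Elovl6, Scd1, Scd2, Me1, Srebf1 and Mlxipl. They were taken by their GENCODE M21 symbol from a table of 55450 genes of the mouse mammary gland, and all 10 were found and passed the count filter that left 12520 genes for testing. The glands came from virgin female FVB mice, and whole-tissue RNA was sequenced after removal of ribosomal RNA. One group is labelled Hpn-/-, for loss of both copies of the gene of hepsin, a serine protease of the cell surface. Hpn-/- replicates 1 and 2 were 6 weeks old and replicate 3 was 5 weeks old. The WT mice were 2, 6 and 5 weeks old in replicates 1, 2 and 3. Neither how the Hpn allele was made nor the number of founder lines is given in the labels. Each library has an ID of its own, with nothing said of litters, so p-values speak only for the spread among these libraries.

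De novo lipogenesis turns surplus carbohydrate into fat. Citrate that leaves the mitochondria is cleaved to acetyl-CoA, which is carboxylated to malonyl-CoA and then condensed into palmitate at the expense of NADPH. Palmitate is lengthened to stearate and desaturated to oleate before it enters triacylglycerol. In the virgin gland the fat pad around the ducts holds the cells best known for this work, and in lactation the secretory epithelium takes it up on a large scale for milk fat. Insulin acts on the genes through SREBP-1c, and glucose through ChREBP.

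The libraries summed to 11829392 to 18807615 counts in Hpn-/- and 10971661 to 14207461 in WT. Loci derived from ribosomal RNA took 78.0% to 84.3% of the counts in Hpn-/- libraries and 82.0% to 83.6% in WT libraries, and the lowest share and the highest TMM factor (1.24) were those of Hpn-/- replicate 1. The set of these loci was defined by rRNA biotypes and by symbols picked by hand. Among those symbols are Gm42418, Mir6236, Rn7s and the protein-coding gene Lars2, so not every locus of the set is a ribosomal RNA gene. Between 1860808 and 3071401 counts were left for all other genes in Hpn-/- libraries, against 1798932 to 2405417 in WT libraries. The targeted gene itself had 4, 3 and 5 counts in Hpn-/- replicates 1, 2 and 3 and 12, 6 and 4 counts in WT replicates 1, 2 and 3, too few to check the genotype of a single library. Levels are given as CPM, a gene's count divided by the library's sum over tested genes times its TMM factor, with the ribosomal loci still in the sum.

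Between Hpn-/- and WT glands 0 of the 10 lipogenic genes passed the test at an edgeR adjusted p under 0.05, which 0.016% of all tested genes did, and the values of the groups overlapped in each gene. Average levels were higher in Hpn-/- glands for 8 of the 10 genes, and in the same 8 genes Hpn-/- replicate 1 had the highest value of all 6 libraries, which was so for 17.8% of all tested genes. Its excess was largest for malic enzyme and next for ATP citrate lyase and the elongase Elovl6, whereas Acacb and the regulator Srebf1 did not share it. The other Hpn-/- libraries both lay within the WT range in 7 of the 10 genes, which was so for 27.7% of all tested genes. Within WT, the 2 week gland had the lowest value of all 6 libraries in 7 of the 10 genes, against 16.2% of all tested genes.

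Sequence upstream of the RefSeq starts is shown for the genes that stood out most in that library (Me1, Acly and Elovl6), for Fasn as the central enzyme and for Mlxipl as a regulator. The table of RefSeq starts on GRCm38.p6 held 8 of the 10 genes, with 12 starts, and did not list Scd1 or Scd2. Each line gives the 250 bases before the start nearest to the GENCODE gene start, 5′ to 3′ on the gene's strand. Capitals mark the letters GGGCGG of a GC box, the 5 letters CCAAT of the box of that name, the letters CACGTG of an E-box or an SRE-like match to TCACNCCAC, found on either strand, so a match on the opposite strand shows as its reverse complement.
Me1, chr9:86695915-86696164, minus strand: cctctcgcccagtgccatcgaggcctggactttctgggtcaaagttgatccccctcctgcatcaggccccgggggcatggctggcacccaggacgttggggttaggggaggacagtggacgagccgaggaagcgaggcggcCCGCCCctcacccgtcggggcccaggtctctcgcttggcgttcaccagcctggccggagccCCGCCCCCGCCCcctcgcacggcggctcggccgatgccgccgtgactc
Acly, chr11:100528001-100528250, minus strand: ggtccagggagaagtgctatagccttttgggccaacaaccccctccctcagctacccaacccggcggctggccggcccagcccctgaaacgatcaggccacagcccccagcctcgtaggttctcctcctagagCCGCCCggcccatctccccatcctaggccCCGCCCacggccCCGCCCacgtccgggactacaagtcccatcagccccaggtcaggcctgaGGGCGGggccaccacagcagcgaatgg
Elovl6, chr3:129532136-129532385, plus strand: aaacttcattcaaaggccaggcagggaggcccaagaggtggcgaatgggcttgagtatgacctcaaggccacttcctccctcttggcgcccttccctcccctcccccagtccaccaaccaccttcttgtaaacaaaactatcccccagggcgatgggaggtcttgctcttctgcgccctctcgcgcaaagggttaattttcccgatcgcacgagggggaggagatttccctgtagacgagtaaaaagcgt
Fasn, chr11:120824548-120824797, minus strand: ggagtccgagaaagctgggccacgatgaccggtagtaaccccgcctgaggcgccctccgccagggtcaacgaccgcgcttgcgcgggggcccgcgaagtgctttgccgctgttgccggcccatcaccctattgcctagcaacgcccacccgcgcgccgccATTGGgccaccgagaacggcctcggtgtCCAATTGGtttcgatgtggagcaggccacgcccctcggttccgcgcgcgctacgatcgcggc
Mlxipl, chr5:135089640-135089889, plus strand: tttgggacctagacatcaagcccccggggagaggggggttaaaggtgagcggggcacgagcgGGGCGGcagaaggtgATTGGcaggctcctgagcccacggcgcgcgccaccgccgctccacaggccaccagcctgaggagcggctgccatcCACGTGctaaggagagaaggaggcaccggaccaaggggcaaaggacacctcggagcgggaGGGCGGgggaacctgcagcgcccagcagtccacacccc
Acly held 4 GC boxes and Me1 held 3, of which the last pair runs on without a gap. Fasn held 3 CCAAT boxes, of which a forward and a reverse one overlap, and Elovl6 held none of the 4 motifs. Mlxipl held 2 GC boxes, a CCAAT box and an E-box. Of the 12 starts, 5 held a GC box, 6 a CCAAT box and 1 an E-box. An SRE-like match was held by 1 start, a second Mlxipl start inside the gene. Among all 32851 starts of the table, 32.7% held a GC box, 33.9% a CCAAT box, 6.02% an E-box and 1.05% an SRE-like match in the same window. These are letter matches, and no binding was measured here.

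Transcripts for lipogenesis were among the most abundant in the gland. By mean CPM over the 6 libraries Fasn and Scd1 ranked 9 and 10 of the 12520 tested genes, below 8 loci derived from ribosomal RNA. Together the 10 genes took 9.17%, 5.10% and 7.02% of the counts outside ribosomal loci in Hpn-/- replicates 1, 2 and 3, against 4.98%, 5.95% and 6.44% in WT replicates 1, 2 and 3. The share was highest in Hpn-/- replicate 1 and the groups overlapped.

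Per kilobase of annotated exon, Scd1 stood first at 942 ± 270 CPM per kb (SD over all 6 libraries) and Fasn followed at 465 ± 114. Acly averaged 81.4 ± 47.2 CPM per kb and Acacb 41.3 ± 7.20. These 4 genes kept their order in all 6 libraries, each above the next. Acaca averaged 21.2 ± 5.92 CPM per kb, Me1 20.3 ± 18.6, Elovl6 17.1 ± 7.97, Scd2 15.5 ± 6.00 and Srebf1 14.2 ± 1.59, levels that overlapped. Me1 was above Elovl6 in only 2 of the 6 libraries. Mlxipl stood last at 10.7 ± 1.60 CPM per kb and lay below Srebf1 in all 6 libraries. Exon length counts every annotated exon, used or not.

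**Figure D1:**
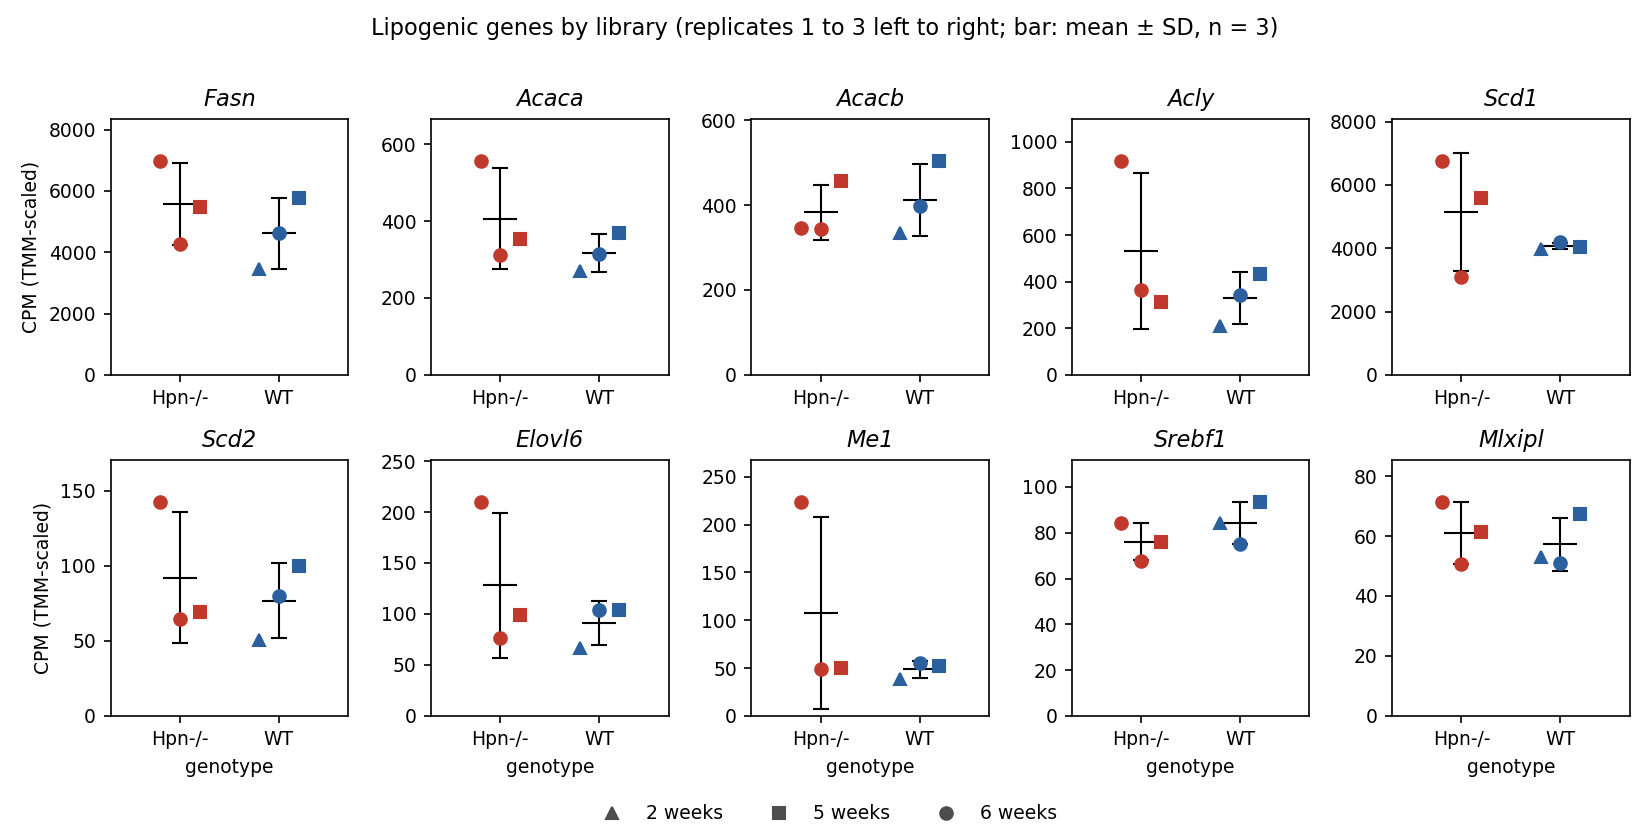
Level of each of the 10 genes in CPM (y axis, from 0) for Hpn-/- libraries on the left and WT libraries on the right of each panel, with the mean and SD (n = 3 each) and the age as the point shape. Hpn-/- replicate 1, the leftmost red point, stands above every other library most clearly for Me1, at 223 CPM against 38.2 to 55.5 CPM in the WT libraries.

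The supply of carbon and reducing power was examined first. Acly (ENSMUSG00000020917.17, chromosome 11, 100476353 to 100528000, minus strand, GRCm38 as are all gene positions here) encodes ATP citrate lyase, which makes cytosolic acetyl-CoA from citrate. It had 916, 364 and 313 CPM in Hpn-/- replicates 1, 2 and 3, against 210, 341 and 432 CPM in WT replicates 1, 2 and 3. Only Hpn-/- replicate 1 lay above the WT libraries, at 2.12 times the highest other library. The means were 531 ± 334 CPM in Hpn-/- and 328 ± 112 CPM in WT glands (SD, n = 3 each). The log2 fold change was 0.70 (SE 0.528, 95% interval -0.66 to 2.05, edgeR adjusted p = 0.898). Without Hpn-/- replicate 1 it was 0.04 (SE 0.254).

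Me1 (ENSMUSG00000032418.15, chromosome 9, 86581371 to 86695953, minus strand) encodes cytosolic malic enzyme, which yields NADPH as it converts malate to pyruvate. It had 223, 49.5 and 49.8 CPM in Hpn-/- replicates 1, 2 and 3, against 38.2, 55.5 and 51.8 CPM in WT replicates 1, 2 and 3. Hpn-/- replicate 1 had 4.02 times the level of the highest other library, and the remaining 5 libraries lay close together. The means of 108 ± 100.2 CPM in Hpn-/- and 48.5 ± 9.14 CPM in WT glands gave the largest log2 fold change of the 10 genes, 1.15 (SE 0.763, 95% interval -0.92 to 3.23, edgeR adjusted p = 0.877). Without Hpn-/- replicate 1 it was 0.02 (SE 0.164). Across all tested genes, 0.927% were more than 1.5 times as high in Hpn-/- replicate 1 as in every other library, and 4 of the 10 lipogenic genes were among them (Me1, Acly, Elovl6 and Acaca). That measure was chosen after the values had been seen.

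The carboxylases make malonyl-CoA, the building block of fatty acid synthesis. Acaca (ENSMUSG00000020532.18, chromosome 11, 84129672 to 84401651, plus strand), the cytosolic form that feeds synthesis, had 555, 312 and 353 CPM in Hpn-/- replicates 1, 2 and 3, against 269, 314 and 369 CPM in WT replicates 1, 2 and 3. Its log2 fold change was 0.36 (SE 0.212, 95% interval -0.09 to 0.81, edgeR adjusted p = 0.835), the smallest p of the 10 genes, and 0.06 without Hpn-/- replicate 1. Acacb (ENSMUSG00000042010.16, chromosome 5, 114146535 to 114250761, plus strand) encodes the mitochondrial form, whose malonyl-CoA restrains fatty acid oxidation. It had 347, 344 and 457 CPM in Hpn-/- replicates 1, 2 and 3, against 335, 399 and 503 CPM in WT replicates 1, 2 and 3. Its highest values were those of the 5 week glands of both genotypes, and Hpn-/- replicate 1 lay near the low end. Its log2 fold change was -0.11 (SE 0.189, 95% interval -0.51 to 0.29, edgeR adjusted p = 0.965), and -0.055 without Hpn-/- replicate 1.

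Ratios within 3 pairs of related genes were computed after the values had been seen. Per kilobase of exon, Acaca stood to Acacb as 0.903, 0.511 and 0.435 in Hpn-/- replicates 1, 2 and 3, against 0.453, 0.443 and 0.413 in WT replicates 1, 2 and 3. Hpn-/- replicate 1 stood above the other 5 libraries. The groups overlapped, and an exact two-sided permutation test of the log2 ratio gave p = 0.3, or 0.45 after Benjamini-Hochberg adjustment over the 3 ratios computed, where 0.1 is the smallest p that 3 against 3 can give.

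Fasn (ENSMUSG00000025153.9, chromosome 11, 120805846 to 120824547, minus strand) encodes fatty acid synthase, which assembles palmitate. It had 6964, 4270 and 5491 CPM in Hpn-/- replicates 1, 2 and 3, against 3448, 4626 and 5768 CPM in WT replicates 1, 2 and 3. The 2 week WT gland was lowest of all libraries and Hpn-/- replicate 1 highest. The means were 5575 ± 1349 CPM in Hpn-/- and 4614 ± 1160 CPM in WT glands, a log2 fold change of 0.27 (SE 0.232, 95% interval -0.22 to 0.76, edgeR adjusted p = 0.902). It was 0.07 without Hpn-/- replicate 1.

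Elovl6 (ENSMUSG00000041220.10, chromosome 3, 129532355 to 129638495, plus strand) encodes the elongase that lengthens palmitate to stearate. It had 209, 76.0 and 98.8 CPM in Hpn-/- replicates 1, 2 and 3, against 66.7, 104 and 104 CPM in WT replicates 1, 2 and 3. Hpn-/- replicate 1 reached 2.02 times the highest other library, and the other Hpn-/- libraries lay between the 2 week WT gland and the older WT glands. The log2 fold change was 0.49 (SE 0.440, 95% interval -0.63 to 1.61, edgeR adjusted p = 0.918) and turned to -0.07 without Hpn-/- replicate 1.

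The stearoyl-CoA desaturases put the double bond into stearate and palmitate. Scd1 (ENSMUSG00000037071.3, chromosome 19, 44394455 to 44407879, minus strand), the main form of adipose tissue, had 6742, 3100 and 5598 CPM in Hpn-/- replicates 1, 2 and 3, against 3977, 4184 and 4052 CPM in WT replicates 1, 2 and 3. The WT libraries were nearly alike at 4071 ± 105 CPM, the 2 week gland included, whereas Hpn-/- libraries lay on both sides of them at 5146 ± 1862 CPM. The log2 fold change was 0.34 (SE 0.243, 95% interval -0.18 to 0.85, edgeR adjusted p = 0.869), and 0.08 without Hpn-/- replicate 1. Scd2 (ENSMUSG00000025203.6, chromosome 19, 44293674 to 44306864, plus strand), a form best known from brain and young animals in mice, had 142, 64.6 and 69.4 CPM in Hpn-/- replicates 1, 2 and 3, against 50.4, 80.1 and 99.7 CPM in WT replicates 1, 2 and 3. Its log2 fold change of 0.26 (SE 0.417, 95% interval -0.79 to 1.32, edgeR adjusted p = 0.960) turned to -0.21 without Hpn-/- replicate 1.

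The desaturases did not keep a fixed ratio. Per kilobase of exon Scd1 was 52.9, 53.6 and 90.2 times as high as Scd2 in Hpn-/- replicates 1, 2 and 3, and 88.1, 58.3 and 45.4 times as high in WT replicates 1, 2 and 3. The ratio overlapped between the genotypes (exact two-sided permutation p = 0.9). The near relatives Scd3 and Scd4 had 8 and 7 counts over all 6 libraries, below the filter. These genes are similar in sequence, and the sources do not say how reads that fit several of them were counted.

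The regulators varied least. Srebf1 (ENSMUSG00000020538.15, chromosome 11, 60199089 to 60222581, minus strand) encodes SREBP-1, the transcription factor through which insulin acts on these enzymes. It had 84.1, 67.9 and 76.1 CPM in Hpn-/- replicates 1, 2 and 3, against 84.2, 74.9 and 93.3 CPM in WT replicates 1, 2 and 3. Its highest library was 1.38 times its lowest, the narrowest range of the 10 genes, and the log2 fold change was -0.15 (SE 0.146, 95% interval -0.45 to 0.16, edgeR adjusted p = 0.920). Without Hpn-/- replicate 1 the log2 fold change was -0.24. The table gives 1 count per gene, so transcripts for the 1a and 1c forms cannot be told apart. Srebf1 shares 109 exonic bases with Rai1 on the opposite strand and 66 with the miRNA gene Mir6922 on its own strand, and the strand setting of the counting is not given, so its count is uncertain by the reads from there.

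Mlxipl (ENSMUSG00000005373.13, chromosome 5, 135089890 to 135138382, plus strand) encodes ChREBP, the glucose-responsive transcription factor of lipogenesis. It had 71.2, 50.7 and 61.2 CPM in Hpn-/- replicates 1, 2 and 3, against 53.0, 51.1 and 67.4 CPM in WT replicates 1, 2 and 3. The groups overlapped, with a log2 fold change of 0.10 (SE 0.157, 95% interval -0.24 to 0.43, edgeR adjusted p = 0.960) that turned to -0.04 without Hpn-/- replicate 1. Mlxipl stood to Srebf1, per kilobase of exon, as 0.862, 0.760 and 0.818 in Hpn-/- replicates 1, 2 and 3 and as 0.640, 0.694 and 0.736 in WT replicates 1, 2 and 3. In this ratio the 3 Hpn-/- values exceeded every WT value, with an exact two-sided permutation p of 0.1, the smallest that can be had, or 0.3 adjusted over the 3 ratios. Mlxipl shares 235 exonic bases with a predicted antisense gene, which makes its count uncertain too. Overlaps of 30 to 61 exonic bases with a miRNA or antisense gene exist for Scd2, Elovl6 and Me1.

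**Figure D2:**
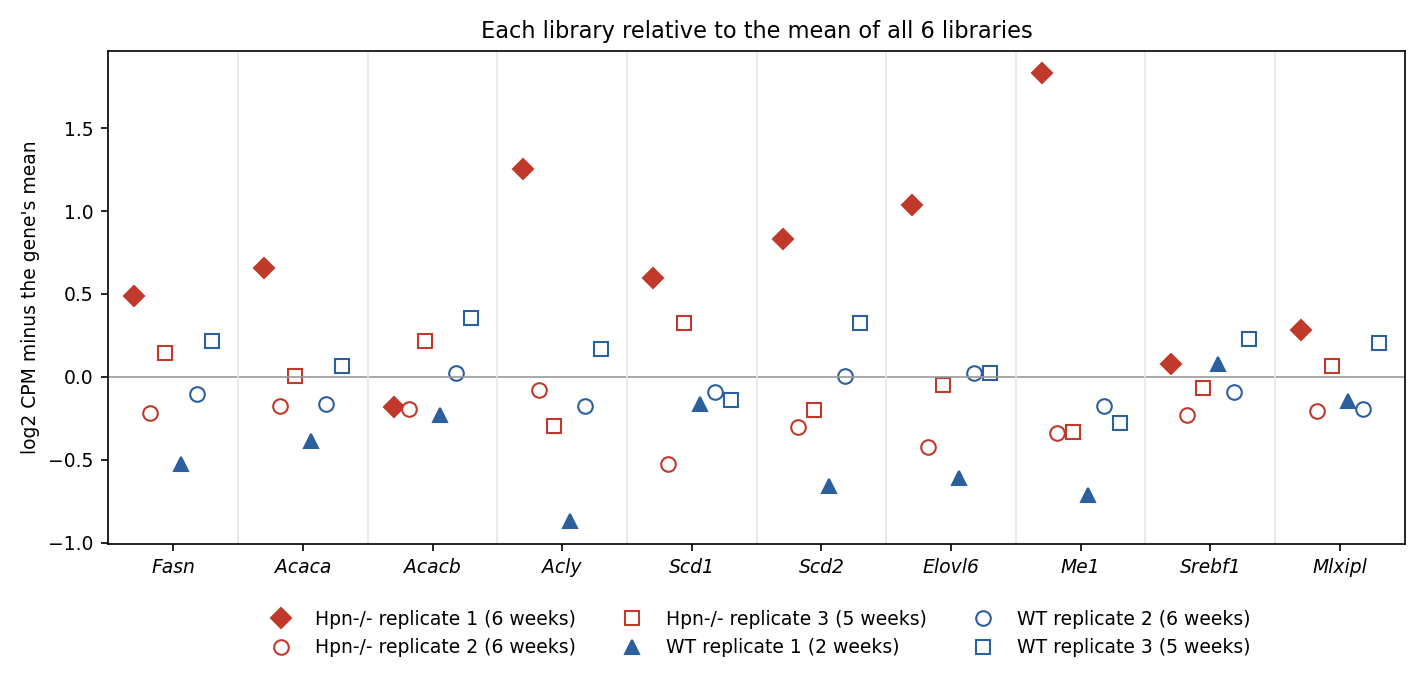
Log2 CPM of each gene in each library minus the gene's mean over all 6 libraries (y axis), with Hpn-/- libraries in red and WT libraries in blue. The filled red diamonds, Hpn-/- replicate 1, lie on top in 8 genes, and the filled blue triangles, the 2 week WT gland, lie at the bottom in 7.

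Counted as a set, 0 of the 10 genes passed the test in either direction. Of all 12520 tested genes, 2 passed (0.016%), both higher in Hpn-/- glands. At an unadjusted p under 0.05 there was also 0 of the 10, against 6.88% of all tested genes, and 0 of the 10 also passed with DESeq2 and with limma-voom. The groups overlapped in all 10 genes, whereas 5.94% of all tested genes were higher and 5.04% lower in Hpn-/- glands without overlap. The log2 fold changes of 8 genes were above 0 and those of Acacb and Srebf1 below it, with a median of 0.31, beside 50.9% above 0 and a median of 0.005 over all tested genes. Without Hpn-/- replicate 1 the median was -0.01, and 5 of the 10 genes were above 0. As that library was the highest in 8 of the 10 genes, leaving it out had to lower their values. Without Hpn-/- replicate 2, the lowest library in 3 of the 10, the median was 0.49, and 8 genes were above 0. Without the 2 week WT replicate 1 it was 0.18. With both left out, an alternative chosen after seeing the data, it was -0.15 and Scd1 alone stayed above 0. The median of the highest over the lowest library was 2.12 for the 10 genes and 1.39 for the 406 tested genes with a mean of at least 50 CPM.

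**Figure D3:**
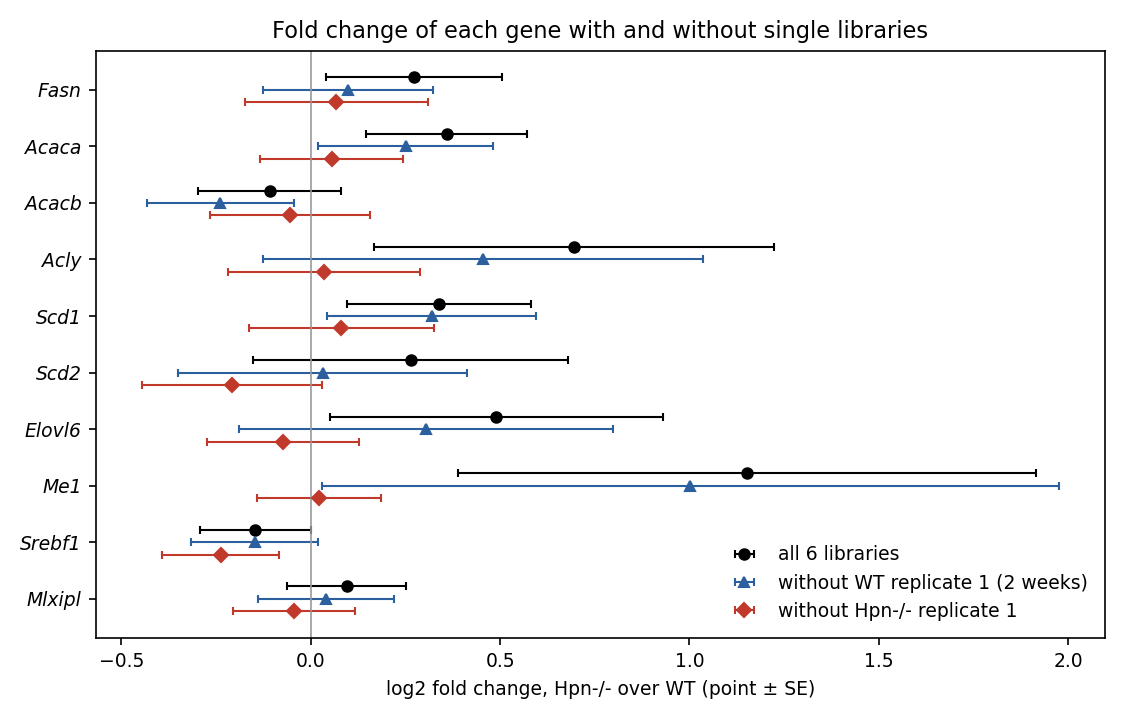
Log2 fold change of Hpn-/- over WT (x axis, point ± SE) for each gene in all 6 libraries (black), without the 2 week WT replicate 1 (blue) and without Hpn-/- replicate 1 (red). Without Hpn-/- replicate 1 the points for Acly and Me1 lie at 0.04 and 0.02, while with all libraries they lie at 0.70 and 1.15. That library was the highest in 8 of the 10 genes, so leaving it out had to lower their values.

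Comparison at equal age was possible for single libraries, with no replicate check. At 5 weeks Hpn-/- replicate 3 was below WT replicate 3 in 9 of the 10 genes, by a median log2 ratio of -0.11. Scd1 was the exception, 0.47 higher on the log2 scale, and Scd2 was lowest at -0.52. Me1 at -0.056 and Acaca at -0.062 were near 0. At 6 weeks Hpn-/- replicate 2 was below WT replicate 2 in 9 of the 10 genes, by a median of -0.15, with Acly alone higher at 0.09. Acaca at -0.009 and Mlxipl at -0.012 hardly differed. Hpn-/- replicate 1, of the same age, was above that WT library in 9 of the 10, by a median of 0.76 and by 2.01 for Me1. The same WT library thus lay below 1 Hpn-/- gland of its age and above the other in most of these genes. Each of these counts rests on 1 library against 1 other, and the share of all tested genes with the same sign was not computed. In a fit of the 5 and 6 week libraries that included age 0 of the 10 genes passed the test, and log2 fold changes ran from -0.18 for Acacb to 0.70 for Me1.

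The 2 week WT gland came from an animal of suckling age, with a single library. Relative to the mean of the older WT glands it was lower in 9 of the 10 genes on the log2 scale, by -0.87 for Acly, -0.83 for Scd2, -0.64 for Elovl6 and -0.58 for Fasn. Scd1 was at -0.05 and Srebf1 at 0.01. The share of all tested genes that were lower by this comparison was not computed. As there is no Hpn-/- gland of this age and no second WT gland, age cannot be told apart from the animal.

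Genes around the pathway were taken from 6 lists of 67 genes, of which 58 passed the count filter. None of the 58 passed the test over all genes, 35 had positive and 23 negative log2 fold changes, and the median was 0.04. At an unadjusted p under 0.05 there was 1 higher and there were 2 lower, against 3.98% and 2.90% of all tested genes. Fads1, Me3 and Gpam, named with their values below, were these 3. Without overlap of the groups 1 of the 58 was higher (Fads1) and 1 lower (Nr1h3), against 5.94% and 5.04% of all tested genes.

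The direct partners of fatty acid synthesis had 7 of 8 tested genes with positive values and a median log2 fold change of 0.23, and 0 passed. Slc25a1, the mitochondrial citrate carrier, had 205, 98.5 and 108 CPM in Hpn-/- replicates 1, 2 and 3, against 85.8, 100.4 and 120 CPM in WT replicates 1, 2 and 3 (log2 fold change 0.43, SE 0.269, edgeR adjusted p = 0.850). As with Acly, only Hpn-/- replicate 1 lay above the WT libraries. Thrsp, the Spot 14 protein that goes with lipogenic activity, had 388, 261 and 251 CPM in Hpn-/- replicates 1, 2 and 3, against 198, 258 and 296 CPM in WT replicates 1, 2 and 3 (log2 fold change 0.26). Slc2a4, the insulin-responsive glucose transporter, was at 0.22. The log2 fold changes without Hpn-/- replicate 1 were 0.007 for Slc25a1, 0.017 for Thrsp and 0.073 for Slc2a4. Of the citrate transporter Slc13a5 and the liver form of pyruvate kinase, Pklr, 1 and 0 counts were found in all libraries.

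Among genes that supply NADPH, 3 of 9 had positive values, 0 passed and the median log2 fold change was -0.07. Tkt, the transketolase of the pentose phosphate pathway and the most abundant of them, averaged 379 ± 120 CPM in Hpn-/- and 301 ± 61.6 CPM in WT glands (log2 fold change 0.33, SE 0.222, edgeR adjusted p = 0.862), and without Hpn-/- replicate 1 the log2 fold change was 0.044. The mitochondrial malic enzyme Me3 had 1.92, 1.19 and 3.61 CPM in Hpn-/- replicates 1, 2 and 3, against 3.85, 3.35 and 4.61 CPM in WT replicates 1, 2 and 3 (log2 fold change -0.75, SE 0.311, edgeR adjusted p = 0.660). Without Hpn-/- replicate 3 it was at -1.30 and passed (edgeR adjusted p = 0.0176), in a fit that sets Hpn-/- glands of 6 weeks against WT glands of 2, 5 and 6 weeks. In that fit 200 of 12916 tested genes passed. Me3 had 13 to 62 counts per library, and its log2 fold change without Hpn-/- replicate 1 was -0.63. Idh2, the mitochondrial NADP-dependent isocitrate dehydrogenase, was at -0.26, and at -0.10 without Hpn-/- replicate 1.

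Relatives in elongation and desaturation had 7 of 10 positive values, 0 passed and the median was 0.06. Fads1, the delta-5 desaturase of polyunsaturated fatty acids, had 22.9, 19.0 and 18.8 CPM in Hpn-/- replicates 1, 2 and 3, against 16.8, 14.0 and 16.1 CPM in WT replicates 1, 2 and 3. It was the gene of the list whose groups did not overlap, yet it did not pass (log2 fold change 0.37, SE 0.135, edgeR adjusted p = 0.604). Without Hpn-/- replicate 1 it was at 0.26. Tecr, the reductase that closes each elongation cycle, was at 0.28 and Fads3 at 0.23, and without Hpn-/- replicate 1 they were at 0.11 and 0.015. Hsd17b12, a reductase of the same cycle and the most abundant gene of the list, was at 0.07.

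In triacylglycerol assembly 6 of 9 genes had positive values, 0 passed and the median was 0.06. Gpam, the acyltransferase of the first step, averaged 82.4 ± 17.9 CPM in Hpn-/- and 106 ± 13.0 CPM in WT glands (log2 fold change -0.36, SE 0.170, edgeR adjusted p = 0.721). Dgat2, an acyltransferase of the last step, averaged 231 ± 60.3 CPM in Hpn-/- and 176 ± 24.4 CPM in WT glands (log2 fold change 0.39, SE 0.188, edgeR adjusted p = 0.743). The phosphatase Lpin1 was at 0.26 and the acyl-CoA synthetase Acsl1, the most abundant of the list, at 0.06. Without Hpn-/- replicate 1 Dgat2 was at 0.14 and Lpin1 at 0.10, while Gpam was at -0.39.

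Controllers of SREBP, ChREBP and LXR activity had 8 of 15 positive values, 0 passed and the median was 0.01. Nr1h3, the nuclear receptor LXR alpha that acts on Srebf1, had 7.14, 7.24 and 8.28 CPM in Hpn-/- replicates 1, 2 and 3, against 8.62, 8.51 and 11.2 CPM in WT replicates 1, 2 and 3. Its groups did not overlap, and it did not pass (log2 fold change -0.32, SE 0.158, edgeR adjusted p = 0.761). Without Hpn-/- replicate 1 it was at -0.29. Srebf2, the relative of Srebf1 that acts mainly on sterol genes, was at 0.15 and the site-1 protease Mbtps1, the most abundant, at -0.02. Of the genes for AMPK, the kinase that inhibits acetyl-CoA carboxylase, and its activator Stk11, 4 of 7 had positive values and the median was 0.01. Log2 fold changes were -0.18 for the subunit Prkag1, 0.12 and 0.13 for the catalytic subunits Prkaa1 and Prkaa2 and 0.01 for Stk11, and 0 passed.

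**Figure D4:**
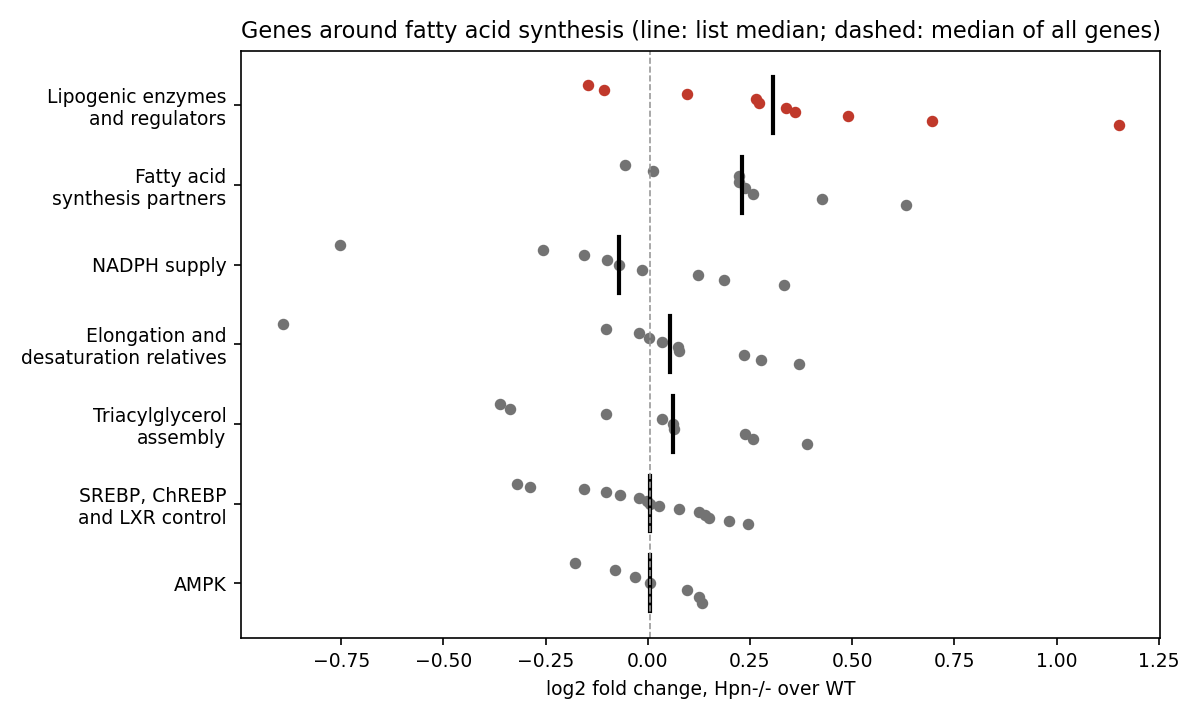
Log2 fold change of Hpn-/- over WT (x axis) for each tested gene of 7 lists, with the list median as a black line and the median of all tested genes as a dashed line. The lipogenic genes in red have a median of 0.31 and the direct partners 0.23, and the controlling genes and AMPK center at 0.01.

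Genes with a like pattern over the libraries were ranked by Pearson's r, over the 6 libraries, with the mean centred log2 CPM of the 10 genes. The 8 highest outside the set were Aldoa (0.995), Arl8b (0.990), Tkt (0.989), Ust (0.988), Lactb2 (0.985), Slc25a1 (0.984), Pgd (0.984) and Hsd11b1 (0.983). Aldoa encodes an aldolase of glycolysis, and Tkt and Pgd act in the pentose phosphate pathway. Arl8b, Ust, Lactb2 and Hsd11b1, with r in the same range, were in none of the pathway lists used here, nor was Aldoa. Aldoa had 428, 274 and 310 CPM in Hpn-/- replicates 1, 2 and 3, against 253, 286 and 335 CPM in WT replicates 1, 2 and 3, the same order of libraries as Fasn. Over the 5 libraries without Hpn-/- replicate 1 these r were 0.931 to 0.996, no independent check, since the ranking had used these 5 as well. The values are a ranking among 12520 genes with 6 points each and carry no test.

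Markers of the cell types in the gland were set beside the lipogenic genes. White adipocyte markers summed to 1683, 1840 and 1821 CPM in Hpn-/- replicates 1, 2 and 3, against 1688, 1548 and 1934 CPM in WT replicates 1, 2 and 3. All 10 were tested and 0 passed, and Adipoq, the adiponectin gene, ran from 98.5 to 106 CPM in Hpn-/- and from 80.9 to 99.2 CPM in WT glands. Averaged over the list as centred log2 CPM, in which each marker counts alike, they stood at 0.079, 0.065 and 0.028 in Hpn-/- replicates 1, 2 and 3, against -0.018, -0.152 and -0.001 in WT replicates 1, 2 and 3. Hpn-/- replicate 1 was thus the highest library on this scale and among the lower ones in the sum, in which the abundant Cfd, the gene of adipsin, was at its lowest there (264.6 CPM). It was the highest library for 1 of the 10 markers, Retn. Its centred log2 CPM was 0.726 for Retn and 0.514 for Lep, but -0.265 for Cidec and -0.359 for Cfd. The summed level of the lipogenic genes was highest in the same library, at 16250 CPM, against 8699 and 12570 CPM in the other Hpn-/- libraries and 8532 to 11540 CPM in the WT libraries. In whole glands, more cells of a type and more RNA per cell cannot be told apart.

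Brown adipocyte markers, in which Zic1 was at 0 counts in all libraries, summed to 207, 296 and 336 CPM in Hpn-/- replicates 1, 2 and 3 and to 186, 362 and 452 CPM in WT replicates 1, 2 and 3. Mammary epithelial markers were low, at 67.6, 73.4 and 42.4 CPM in Hpn-/- and 59.9, 61.3 and 41.5 CPM in WT replicates 1, 2 and 3. Wap, a milk protein gene, had 0 counts in all libraries, and 9 of the 10 epithelial markers were tested. Of these 7 had positive and 2 negative log2 fold changes, and 0 passed. Krt8 was lower in Hpn-/- glands without overlap, as were 5.04% of all tested genes (log2 fold change -0.49, edgeR adjusted p = 0.621). Lymphocyte markers summed to 53.0, 63.9 and 49.0 CPM in Hpn-/- and 37.8, 48.2 and 35.5 CPM in WT replicates 1, 2 and 3, and all 8 had positive log2 fold changes with 0 passing, while 4 were higher in Hpn-/- glands without overlap (5.94% of all tested genes) and 6 were higher at an unadjusted p under 0.05 (3.98% of all tested genes). Liver markers were nearly missing, with 0 to 2 counts over all libraries for Apoa2, Ttr and Pklr and Alb at 0.46 to 1.46 CPM in Hpn-/- and 0.93 to 1.91 CPM in WT libraries.

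Skeletal muscle markers, by their sum, were also highest in Hpn-/- replicate 1. They summed to 902, 224 and 13.1 CPM in Hpn-/- replicates 1, 2 and 3, against 591, 96.3 and 43.0 CPM in WT replicates 1, 2 and 3. The 2 week WT gland, second highest in muscle transcripts, had the lowest summed level of the lipogenic genes. Hpn-/- replicate 3, lowest in muscle transcripts, had the second highest summed level of the lipogenic genes (12570 CPM). The part of muscle, fat and epithelium content in the levels of the lipogenic genes was not tested.

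**Figure D5:**
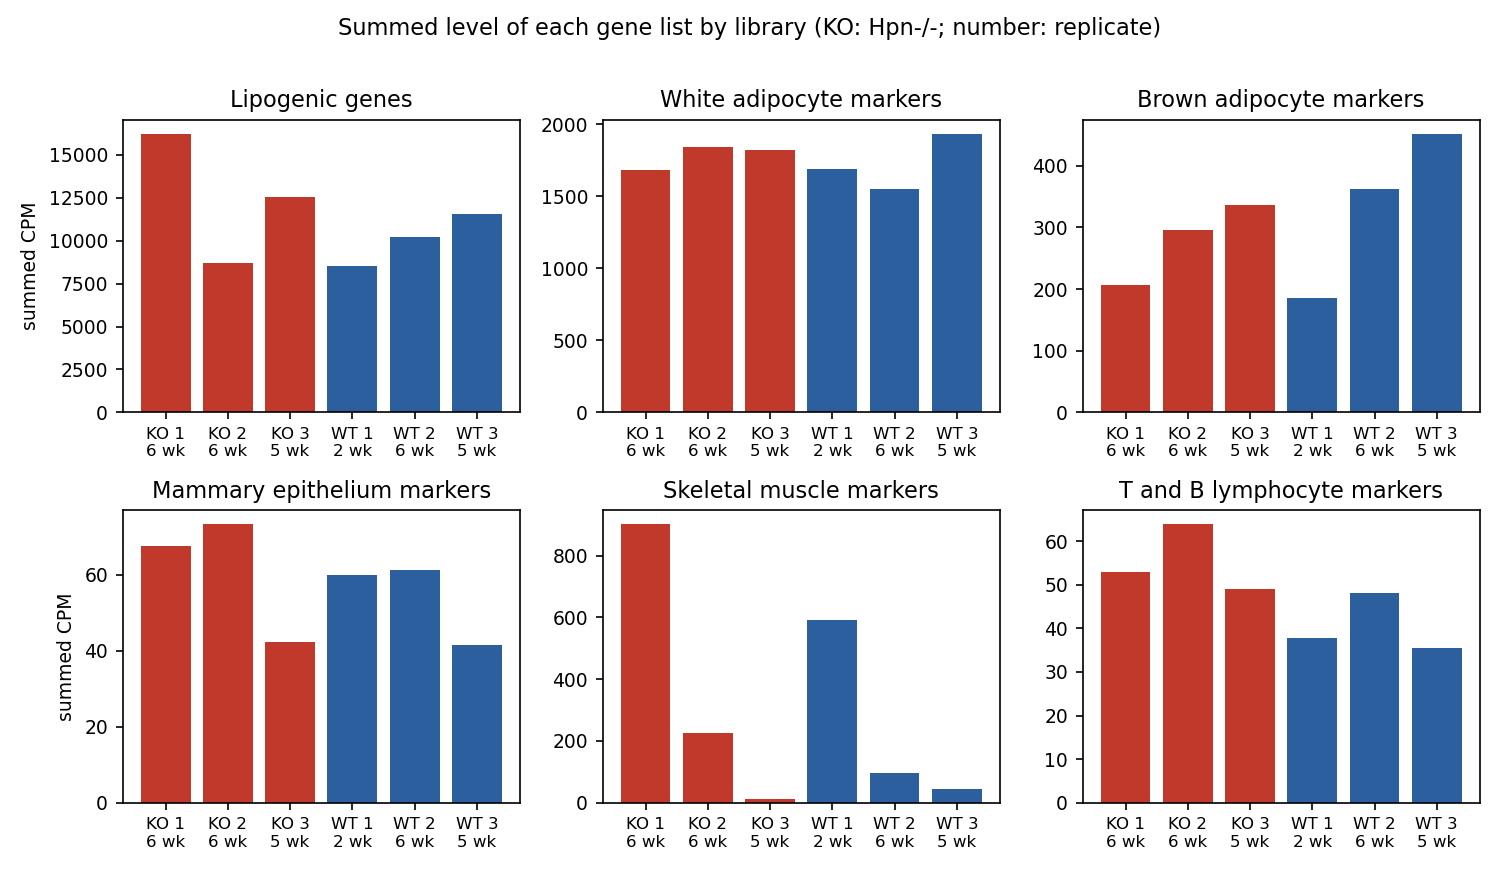
Summed CPM (y axis, from 0) of the 10 lipogenic genes and of 5 marker lists in each library, with Hpn-/- libraries in red on the left and WT libraries in blue on the right. The lipogenic genes peak in Hpn-/- replicate 1 at 16250 CPM, where the white adipocyte markers sum to 1683 CPM, second lowest. The mean centred log2 CPM of these markers (0.079) is the highest of all libraries there, though 1 of the 10 markers, Retn, peaks in that library.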

How the data were processed

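Directional libraries were made from ribosome-depleted total RNA and sequenced as single-end reads, per the labels' protocols. The authors deposited raw counts of reads per gene. Tools listed in the submitters' processing notes are STAR 2.6.0c, featureCounts, Trimmomatic, bcl2fastq and DESeq2, with the build GRCm38. Not given in the sources used here are the annotation, the strand setting and the treatment of multi-mapping reads. All 55450 identifiers, with versions, matched GENCODE M21.

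The genotype in the titles set the groups. In R 4.3.3, edgeR 4.0.16 kept 12520 genes (filterByExpr, minimum count 10, minimum total 15), scaled by TMM (factors 0.914 to 1.24) and tested genotype with a robust quasi-likelihood fit, two-sided, with Benjamini-Hochberg adjustment over all tested genes and a threshold of 0.05. Over all genes the standard error of the log2 fold change had a median of 0.192. Libraries of a group differed by more than sampling noise (chi-square 6.73 to 32.1 per degree of freedom).

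The members and lists were chosen with earlier results of these data known. Named genes are the 10 members, Hpn, from each pathway list its most abundant gene and the 3 with the smallest p, and the 8 genes of like pattern, leaving out predicted genes; 1 gene under this rule is not reported here. Log2 CPM used a prior count of 2. Genes named beyond this rule were chosen after their values were seen. Alternatives included RLE scaling, other filters, DESeq2 1.42.0, limma-voom (limma 3.58.1), leaving out ribosomal loci, age, a replicate block and each library left out.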

Additional observations from a re-analysis of the deposited data

How the results depend on the processing

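Under all 17 alternatives 0 of the 10 lipogenic genes passed the test. The count over all genes was 2, and it was 100 with no count filter, 8 with DESeq2, 0 with age as a covariate and 4 with age among the 5 and 6 week libraries. The cause of these moves was not tested. Leaving out single libraries gave 0 to 200 genes: 200 without Hpn-/- replicate 3, 4 without WT replicate 3, 1 without Hpn-/- replicate 1 and 0 without each of the others. The main fit did not pair libraries by replicate number. Deviations from the group mean correlated at 0.17, 0.07 and 0.37 between Hpn-/- and WT libraries of equal number 1, 2 and 3. Between libraries of unequal number the correlations were -0.29 to 0.13. With the replicate block 9 genes passed, with a median of 0.27 for the lipogenic genes.

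With single libraries left out the median log2 fold change of the 10 genes ran from -0.01 without Hpn-/- replicate 1 to 0.49 without Hpn-/- replicate 2. It was -0.15 without Hpn-/- replicate 1 and WT replicate 1 together. With both left out the values that turned below 0 were -0.10 for Fasn, -0.049 for Acaca, -0.20 for Acly, -0.44 for Scd2, -0.26 for Elovl6, -0.12 for Me1, -0.094 for Mlxipl, -0.10 for Slc25a1, -0.034 for Slc2a4, -0.13 for Thrsp, -0.10 for Tkt, -0.19 for Hsd17b12, -0.069 for Acsl1, -0.092 for Prkaa1, -0.19 for Prkaa2 and -0.01 for Stk11. With age as a covariate Scd2 was at -0.03, Hsd17b12 at -0.074, Acsl1 at -0.022, Mbtps1 at 0 and Stk11 at -0.031, and among the 5 and 6 week libraries Scd2 was at -0.024, Hsd17b12 at -0.073, Acsl1 at -0.021 and Stk11 at -0.037. Stk11 was at -0.002 without ribosomal loci, in the narrower and in the wider set. With single libraries left out the sign changed for Scd2 (-0.21 to 0.50), Elovl6 (-0.074 to 0.75), Mlxipl (-0.043 to 0.23), Acacb (-0.26 to 0.054), Hsd17b12 (-0.065 to 0.17), Prkaa2 (-0.18 to 0.31), Mbtps1 (-0.061 to 0.012), Stk11 (-0.087 to 0.095) and Acsl1 (-0.058 to 0.20).

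With 1798932 to 3071401 counts per library outside ribosomal loci, the depth was ample for the 10 genes (535 counts or more), and the spread between 3 libraries limits the comparison.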

Other observations

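Genes that stood out in Hpn-/- replicate 1 were listed after the values had been seen, as those with a mean of at least 20 CPM, an annotated symbol and more than 1.5 times the level of every other library. There were 13, of which 4 were lipogenic genes described above (Me1, Acly, Elovl6 and Acaca). The others included Acss2, which makes acetyl-CoA from acetate, at 124, 47.7 and 47.9 CPM in Hpn-/- replicates 1, 2 and 3, against 36.0, 47.6 and 58.3 CPM in WT replicates 1, 2 and 3. Pcx, the pyruvate carboxylase that replenishes mitochondrial oxaloacetate, had 316, 178 and 183 CPM in Hpn-/- replicates 1, 2 and 3, against 150, 138 and 176 CPM in WT replicates 1, 2 and 3. Its groups narrowly did not overlap, at 178 CPM in Hpn-/- replicate 2 against 176 CPM in WT replicate 3. Of all tested genes 11% did not overlap in either direction, and 5.94% were higher in Hpn-/- glands without overlap. Pcx did not pass (log2 fold change 0.54, SE 0.210, edgeR adjusted p = 0.635). It was picked for its level in Hpn-/- replicate 1, so neither its separation nor its fold change is a test of genotype. The citrate carrier Slc25a1 was 1.71 times as high there as in the next library. Ttn, Atp2a1, Myh4, Neb and Ckm, genes of skeletal muscle, had 1.55 to 1.77 times the level of the highest other library, which for each was the 2 week WT gland. Tob1 was the remaining gene, at 39.4 CPM against 15.7 to 23.3 CPM in the other libraries.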
